A study of Homo sapiens with 6 samples.

Results

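The 9 genes described here are the GADD45 family (GADD45A, GADD45B and GADD45G) and 6 further genes of the p53 response (MDM2, SESN1, PPM1D, FAS, TP53I3 and RRM2B). They were taken by symbol from a table of 18268 rows, and each had a row of its own. They were chosen by their FPKM in the comparison of knockout and vector control libraries, so their differences between the groups are given as descriptions. Their p-values are not printed. Whether a member passed the threshold of the fit over all genes is named below as a description only. The RNA came from MIA PaCa-2 cells, an established line from a human pancreatic carcinoma, labelled as epithelial. There were 3 LINC00901 KO libraries (KO 1 to 3), in which LINC00901, a gene of a long non-coding RNA, is labelled as knocked out, and 3 vector control libraries (LCV2, vector control 1 to 3). All the cells were grown in DMEM with fetal bovine and horse serum, and the labels name no other treatment. The labels do not say whether the libraries came from separate cultures or from 1 knockout clone, so the spread between them may be technical. No row named LINC00901 (0 of 18268), so the knockout was not checked in these values and each direction rests on the labels.

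The tumour suppressor p53 is a transcription factor that is stabilised by DNA damage and other stress and then raises genes of cell cycle arrest, DNA repair, metabolism and cell death. MDM2 and PPM1D feed back on p53 and limit it, while GADD45A, SESN1, FAS, TP53I3 and RRM2B carry out parts of the response. The GADD45 genes encode small acidic stress proteins that bind the kinase MAP3K4 and the replication clamp PCNA. They are also induced without p53: GADD45A by ATF4 and FOXO3, GADD45B by NF-kB and by TGF-beta through SMAD proteins.

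For the promoters, RefSeq windows of GRCh38.p14 were searched for 7 of the 9 genes, 14 windows in all. Each ran from 250 bases before to 50 after a transcript start. GADD45A and RRM2B are named only. The p53 response element is a pair of decamers, each with a central C and G. None of the 14 windows (0) held a pair without a mismatch. A second search, chosen after the first gave no match, allowed up to 3 mismatches in adjoining decamers. It required the central C and G in both decamers, so pairs lacking 1 of these were passed over. By this rule 3 of the 7 genes had an element, and 1.12% of all 35116 windows. The first is a count of genes, which can have several windows, so it is not set against that share. The elements of MDM2, FAS and SESN1 are shown for comparison, with capitals at the central C and G of each decamer. Their positions are chr12:68808923-68808942 on the plus strand, chr10:88991309-88991328 on the plus strand and chr6:109009018-109009037 on the minus strand. They had 2, 2 and 3 mismatches to the consensus.
MDM2: ggtCaaGttcagaCacGttc
FAS: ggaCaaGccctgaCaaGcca
SESN1: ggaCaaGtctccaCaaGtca
These 3 genes did not share a direction in the knockout libraries, as their values below show.

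The MDM2 element found by this rule lay 94 bases before the start of its internal transcript, within the 250 bases at chr12:68808767-68809016 on the plus strand. It is shown in capitals because MDM2 had the highest fold change of the 8 tested members.
MDM2 internal promoter: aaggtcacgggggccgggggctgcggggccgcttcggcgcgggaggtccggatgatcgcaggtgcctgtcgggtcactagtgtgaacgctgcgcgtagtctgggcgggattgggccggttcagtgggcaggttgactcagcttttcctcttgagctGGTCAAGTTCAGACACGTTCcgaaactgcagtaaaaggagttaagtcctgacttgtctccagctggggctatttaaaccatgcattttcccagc
GADD45B, the member that varied most between libraries, is shown with the 250 bases before its start, chr19:2475877-2476126 on the plus strand. The capitals mark, from the 5′ end, a match to the kappaB site, 2 CCAAT boxes, TATAAA and a second match to the kappaB site, both strands being searched.
GADD45B promoter: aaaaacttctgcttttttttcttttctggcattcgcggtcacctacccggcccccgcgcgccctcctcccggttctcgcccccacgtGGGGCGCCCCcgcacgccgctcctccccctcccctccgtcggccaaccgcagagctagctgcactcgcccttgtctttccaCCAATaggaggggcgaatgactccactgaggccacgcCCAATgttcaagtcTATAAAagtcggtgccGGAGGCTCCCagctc
Of all windows, 11.3% held a match to the kappaB site, 34.6% CCAAT and 11.5% TATAAA. In GADD45B the motif CACGTG, found in 7.26% of windows, shares its last base with the first kappaB match. The FAS window with the element also held a kappaB match. The GADD45G window held 1 CACGTG as well. The TP53I3 window held none of the searched motifs. In the windows of MDM2 and FAS, and in 7.71% of all, stood TGANTCA. Windows of SESN1, FAS, MDM2 and PPM1D held 1 or more copies of another motif, GGGCGG, as did 45% of all. A match describes letters only, not binding.

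The values are FPKM, fragments scaled by the authors to transcript length and library size, so levels can be compared between genes. They summed to between 123107 and 134389 per library, and the depth is unknown. Vector control 1 stood apart from the other vector controls: over the 9624 tested genes it correlated at r = 0.904 and 0.906 with vector control 2 and 3, against 0.979 between those 2, and at r = 0.932 with KO 3 (these values run across genes and are no test). KO 1 also stood apart from its group, at r = 0.933 and 0.935 with KO 2 and KO 3, against 0.970 between those 2. With vector control 2 and 3 it correlated at r = 0.920 and 0.921. Genes of the replication-dependent histones took up 3.03%, 5.21% and 5.25% of the FPKM sum in KO 1, 2 and 3, against 6.28%, 2.83% and 3.29% in vector control 1, 2 and 3. Of 5 epithelial markers with a row of their own, the keratin genes KRT18 and KRT19 were present, while KRT7, EPCAM and CDH1, the E-cadherin gene, stayed below 1 FPKM everywhere. The summed epithelial markers ran from 42.9 to 83.2 FPKM in the KO libraries and from 97.0 to 118 FPKM in the vector controls. KRT18, the highest of them, was lower in every KO library (28.78 to 58 FPKM) than in any vector control (70.41 to 79.42 FPKM).

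Markers of other cell types were mostly near 0, with exceptions among leukocyte and fibroblast markers. Of 7 leukocyte markers with a row, PTPRC and CD3E were listed at 0 in all 6 libraries, and the sum of the list ran from 1.22 to 1.83 FPKM in the KO libraries and from 0.09 to 0.68 FPKM in the vector controls. LYZ, the lysozyme gene, was the 1 that reached 1 FPKM. It had 1.45, 1.83 and 1.2 FPKM in KO 1, 2 and 3 and was listed at 0 in all 3 vector controls. Only genes with 1 FPKM in at least 3 libraries were tested, and LYZ met this only through the KO libraries. It had to differ to be tested, so nothing is read from its limma value (adjusted p = 0.00799). The summed fibroblast markers (6 with a row, DCN at 0 everywhere) ran from 68.2 to 96.8 FPKM in the KO libraries and from 68.9 to 98.9 FPKM in the vector controls, but their 2 highest members ran in opposite directions. The collagen gene COL1A2 had 51.58, 56.18 and 50.63 FPKM in KO 1, 2 and 3, against 24.72, 35.84 and 34.3 FPKM in vector control 1, 2 and 3 (limma adjusted p = 0.119). COL3A1, another collagen gene, had 41.24, 18.78 and 16.46 FPKM in KO 1, 2 and 3, against 43.1, 61.2 and 62.02 FPKM in vector control 1, 2 and 3 (limma adjusted p = 0.164). The groups did not overlap for either collagen gene, and neither was called. No endothelial, acinar or endocrine marker with a row reached 1 FPKM; the highest of them were CDH5, CTRB1 and CHGA. The part of these markers in the results on the members was not tested.

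GADD45A had 3.40, 2.72 and 2.79 FPKM in KO 1, 2 and 3, against 6.29, 10.92 and 12 FPKM in vector control 1, 2 and 3. Every KO library lay below every vector control, and vector control 1 was the lowest of its group. The means were 2.97 ± 0.374 FPKM in KO libraries and 9.74 ± 3.03 FPKM in vector controls (SD, n = 3 each), so the KO mean was 0.305 times the control mean. In a bulk library, fewer cells with a transcript and less of it per cell cannot be told apart. The log2 fold change, KO minus vector control on log2(FPKM + 1), was -1.40 with a standard error (SE) of 0.24 in limma. Of the 9624 tested genes, 0.831% had a fold change as low. GADD45A was the 1 member of 8 tested with an adjusted p (limma, Benjamini-Hochberg) below 0.05, which is what a call means here, beside 1.35% of all tested genes. This contrast was used in choosing the members, so nothing is read from that count.

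GADD45B, which responds to NF-kB and TGF-beta, had 15.46, 8.37 and 12.25 FPKM in KO 1, 2 and 3, against 2.93, 34.89 and 38.48 FPKM in vector control 1, 2 and 3. The groups overlapped, because vector control 1 was the lowest of all 6 libraries while the other vector controls were the highest. The log2 fold change was -0.48 with an SE of 0.84, the widest SE of the 8 tested members. On the log2 scale vector control 1 lay -3.26 from the mean of vector control 2 and 3, a gap reached or passed downwards by 8 of the 9624 tested genes, GADD45B among them. The 3 KO libraries lay 1.69 above vector control 1 but -1.57 from the mean of vector control 2 and 3. GADD45G was listed at 0 in all 3 KO libraries, and stood at 0.10, 0 and 0.20 FPKM in vector control 1, 2 and 3. It was below the filter of 1 FPKM in at least 3 libraries, so it was not tested and no fold change is given.

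The balance within the family differed between libraries. The level of GADD45B over that of GADD45A was 4.55, 3.08 and 4.39 in KO 1, 2 and 3, against 0.466, 3.20 and 3.21 in vector control 1, 2 and 3. In vector control 1 GADD45A exceeded GADD45B, and in the other 5 libraries GADD45B exceeded GADD45A.

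**Figure D1:**
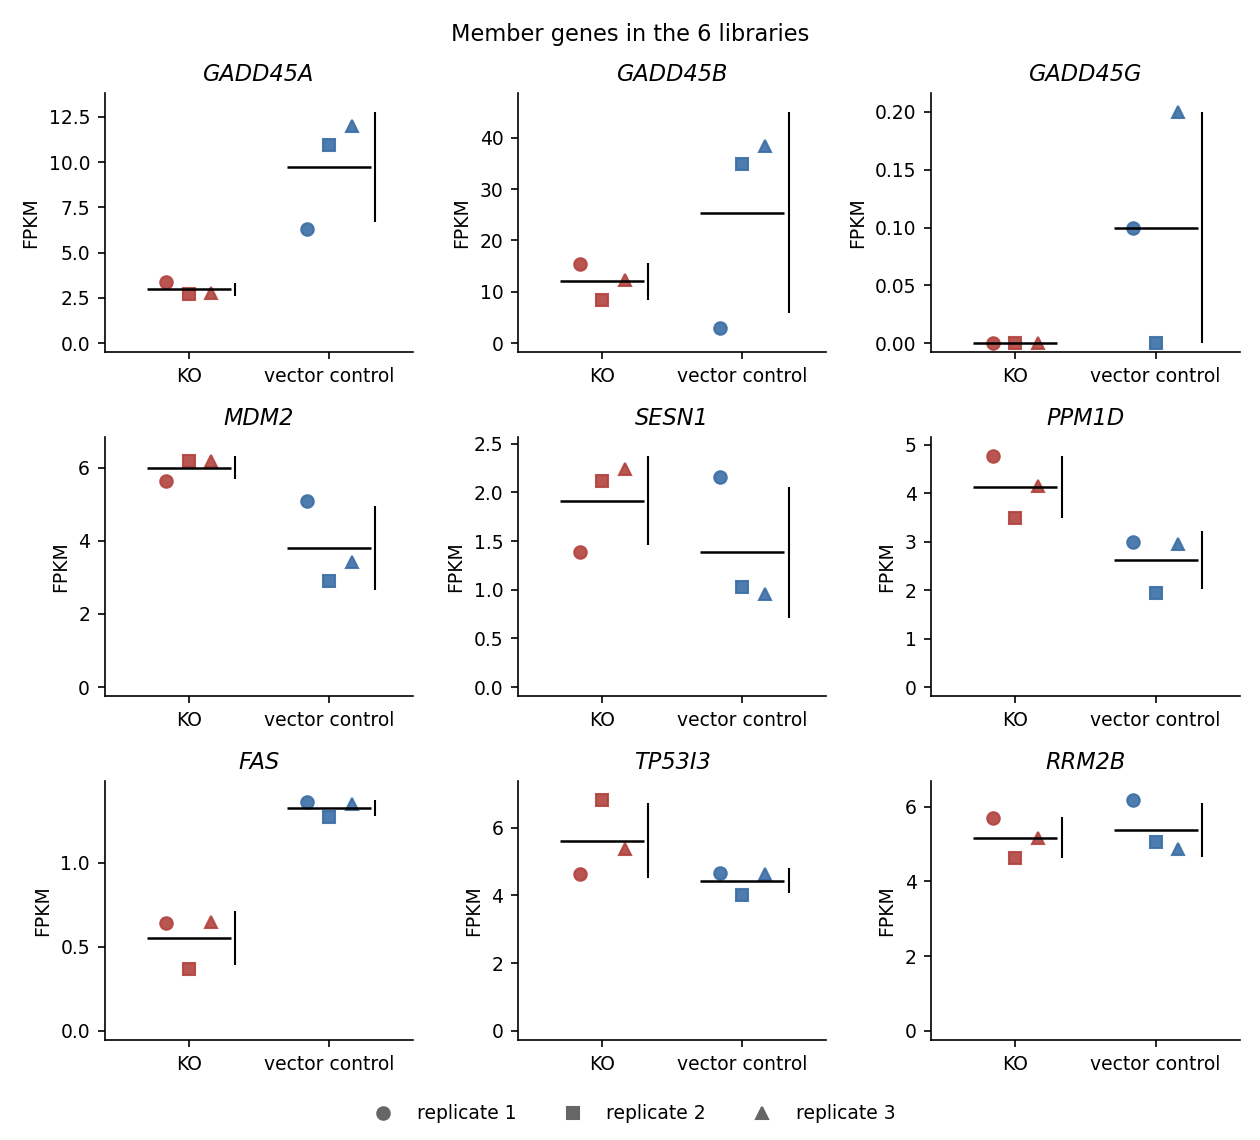
FPKM of the 9 members (1 panel each, linear axis from 0) in the KO libraries and the vector controls. Symbols are libraries by replicate number, horizontal lines group means and vertical lines the mean ± SD (n = 3). GADD45A and FAS were lower in every KO library than in any vector control, MDM2 and PPM1D higher, and vector control 1 was far below its group for GADD45B.

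Both members that restrain p53, MDM2 and PPM1D, had higher values in the KO libraries. MDM4, a further p53 inhibitor among the list genes below, had a fold change of -0.46, and its groups overlapped. MDM2, the ubiquitin ligase that marks p53 for degradation, had 5.63, 6.19 and 6.18 FPKM in KO 1, 2 and 3, against 5.08, 2.89 and 3.43 FPKM in vector control 1, 2 and 3. The groups did not overlap, although vector control 1 came close to the KO libraries. The fold change was 0.57 (SE 0.20), a height that 8.08% of tested genes reached. PPM1D, the WIP1 phosphatase that removes activating phosphates from p53 and ATM, had 4.76, 3.48 and 4.15 FPKM in KO 1, 2 and 3, against 3.0, 1.94 and 2.95 FPKM in vector control 1, 2 and 3. Its lowest KO library lay above the highest vector control, with a fold change of 0.51 (SE 0.19), reached by 10.6% of tested genes. Neither gene was called. Over all tested genes the groups were fully apart in 23.8%, with 15.4% higher and 8.35% lower in KO, and of the 8 tested members 2 were higher and 2 lower in this way. FAS, 1 of the lower members, passed the filter only through the vector controls. The members were also chosen with this contrast known, so nothing is read from that count.

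FAS, the death receptor for FAS ligand, had 0.64, 0.37 and 0.65 FPKM in KO 1, 2 and 3, against 1.36, 1.27 and 1.35 FPKM in vector control 1, 2 and 3. The vector controls were close to each other (1.33 ± 0.0493 FPKM, SD, n = 3), and all KO libraries lay below them (0.553 ± 0.159 FPKM, n = 3). FAS passed the filter only through the vector controls, so it had to differ to be tested. Its fold change was -0.59 (SE 0.13) with the pseudocount of 1, and -1.16 with a pseudocount of 0.1, as its level is low. It was not called. The use of strand is not stated, so reads of FAS and of its antisense gene FAS-AS1 cannot be told apart.

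Of the metabolic members, none (0 of 3) separated the groups. SESN1, a sestrin that restrains mTORC1, had 1.39, 2.12 and 2.24 FPKM in KO 1, 2 and 3, against 2.16, 1.03 and 0.96 FPKM in vector control 1, 2 and 3. Vector control 1 stood with KO 2 and KO 3, the same libraries in which the histone share was above 5%. KO 1 stood between them and the other vector controls; the part of that division in the value was not tested. TP53I3, a quinone oxidoreductase, had 4.64, 6.83 and 5.38 FPKM in KO 1, 2 and 3, against 4.67, 4.01 and 4.63 FPKM in vector control 1, 2 and 3. KO 1 lay within the range of the vector controls and the other KO libraries above it. RRM2B, the p53-inducible small subunit of ribonucleotide reductase, had 5.71, 4.62 and 5.17 FPKM in KO 1, 2 and 3, against 6.19, 5.05 and 4.87 FPKM in vector control 1, 2 and 3. The fold changes were 0.31 (SE 0.23) for SESN1, 0.27 (SE 0.17) for TP53I3 and -0.04 (SE 0.16) for RRM2B. Over the 8 tested members 4 fold changes lay above 0 and 4 below, with a median of 0.11, beside a median of 0.08 and 59.3% above 0 over all tested genes.

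**Figure D2:**
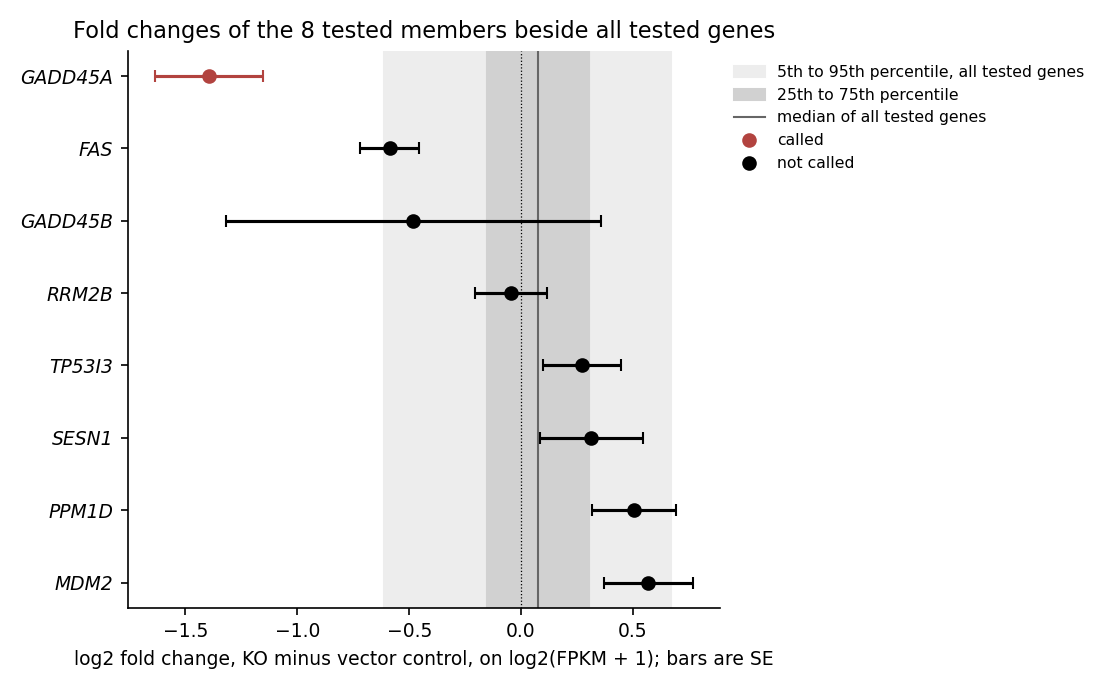
Log2 fold changes (KO minus vector control, on log2(FPKM + 1)) of the 8 tested members, with bars of 1 SE. Shaded bands give the 25th to 75th and the 5th to 95th percentile of the 9624 tested genes and the grey line their median of 0.08. GADD45A, at -1.40, lies outside the outer band, and the other 7 lie inside it.

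The order of mean levels differed between the groups, most for GADD45A (rank 6 in KO, 2 in vector control) and MDM2 (rank 2 in KO, 5 in vector control). In the KO libraries GADD45B was highest at 12 ± 3.55 FPKM, followed by MDM2 at 6.0 ± 0.320, TP53I3 at 5.62 ± 1.11, RRM2B at 5.17 ± 0.545 and PPM1D at 4.13 ± 0.640 (SD, n = 3). GADD45A came sixth at 2.97 ± 0.374 FPKM, before SESN1 at 1.92 ± 0.460 and FAS at 0.553 ± 0.159. In the KO libraries the values of TP53I3 overlapped those of its neighbours in this order, MDM2 and RRM2B, and those of RRM2B overlapped those of PPM1D. In the vector controls GADD45B was highest at 25.4 ± 19.6 FPKM and GADD45A second at 9.74 ± 3.03, followed by RRM2B at 5.37 ± 0.716, TP53I3 at 4.44 ± 0.370, MDM2 at 3.80 ± 1.14 and PPM1D at 2.63 ± 0.598. SESN1 at 1.38 ± 0.674 and FAS at 1.33 ± 0.0493 FPKM came last and overlapped. Other neighbours that overlapped in the vector controls were GADD45B and GADD45A, TP53I3 and MDM2, MDM2 and PPM1D, and PPM1D and SESN1.

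The call of GADD45A depended on single libraries. Without vector control 1 the fold change was -1.65 and the call stood. Leaving out another library gave -1.47 (KO 1), -1.35 (KO 2), -1.36 (KO 3), -1.30 (vector control 2) or -1.24 (vector control 3), and each of these fits lost the call. The direction was the same in all 15 alternatives tried. Without vector control 1, MDM2 (0.75), FAS (-0.58) and GADD45B (-1.57) were called as well. FAS had to differ to be tested, so nothing is read from its call. Without vector control 2 or 3 the value of GADD45B turned to 0.03 or 0.10, neither of them called.

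**Figure D3:**
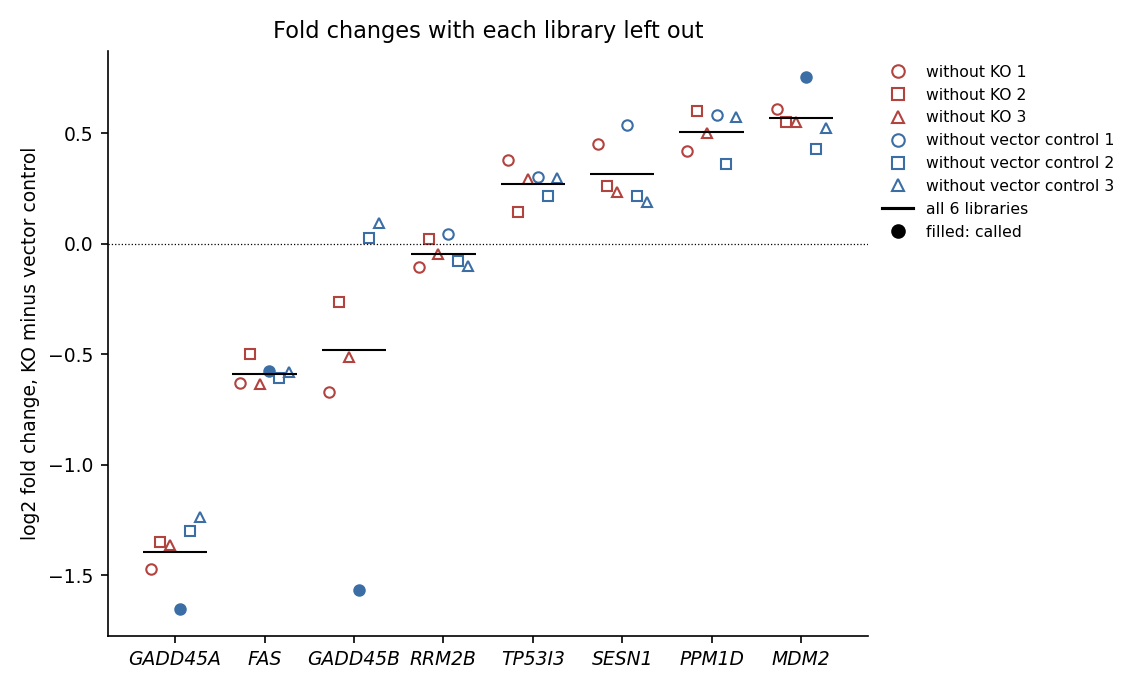
Log2 fold changes of the 8 tested members with each of the 6 libraries left out in turn (symbols, filled where called) and with all 6 (black lines). GADD45A stays between -1.65 and -1.24, and GADD45B runs from -1.57 without vector control 1 to 0.10 without vector control 3.

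The rest of the pathway was followed in 10 lists of p53 regulators, p53 targets and partners of the members. Of their 137 genes other than the members, 121 had a row of their own, 16 lay in rows joined with a neighbouring gene, and 106 were tested. In limma 0 rose, 0 fell and 106 did not pass at an adjusted p below 0.05, beside 0.509% called higher and 0.842% called lower over all tested genes. At an unadjusted p below 0.05 there were 17 of the 106, beside 1685 of the 9624. The groups did not overlap in 25.5% of the 106, beside 23.8% over all tested genes, and the median fold change was 0.07. Without vector control 1 limma called 14 of the 106, 8 higher and 6 lower in KO, where it called 1329 of all genes. Without KO 1 it called 1, the phosphatase gene PPM1A.

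In the list of p53 regulators the highest fold change was 0.60 for the p53 relative TP63 (adjusted p = 0.418) and the lowest -0.46 for MDM4, which binds and inhibits p53 beside MDM2 (adjusted p = 0.498), both from limma. The level of MDM2 over that of MDM4 was 1.86, 4.73 and 2.77 in KO 1, 2 and 3, against 2.82, 0.741 and 0.738 in vector control 1, 2 and 3. Vector control 1 fell within the KO range. The list had 0 of 12 tested genes called and a median of 0.22.

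Among other p53 targets in cell cycle arrest and DNA repair, 0 of 13 were called and the median was -0.08. BTG2, an antiproliferative gene, had the highest fold change of all lists, with 15.22, 22.67 and 35.47 FPKM in KO 1, 2 and 3, against 5.40, 12.51 and 2.71 FPKM in vector control 1, 2 and 3 (1.82, SE 0.49, limma adjusted p = 0.147). The stress kinase gene PLK3 had the lowest, with 3.43, 0.93 and 1.05 FPKM in KO 1, 2 and 3, against 2.18, 11.60 and 11.49 FPKM in vector control 1, 2 and 3 (-1.61, SE 0.58, limma adjusted p = 0.230). BTG2 separated the groups and PLK3 did not, since vector control 1 lay below KO 1. CDKN1A, the cell cycle inhibitor p21 and the best known p53 target (a list gene chosen after its values were seen), had 1.37, 6.37 and 5.89 FPKM in KO 1, 2 and 3, against 6.24, 2.74 and 2.21 FPKM in vector control 1, 2 and 3. As for SESN1, KO 2, KO 3 and vector control 1 were high, and its fold change was 0.16 (SE 0.50, limma adjusted p = 0.899).

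Among other p53 targets in cell death 0 of 10 were called (median 0.06), and among those in metabolism and stress 0 of 8 (median 0.06). In the first, TP53INP1, an autophagy and cell death gene, was highest at 0.42 (limma adjusted p = 0.252). BBC3, which encodes the cell death protein PUMA, was lowest, with 1.18, 0.57 and 0.78 FPKM in KO 1, 2 and 3, against 0.45, 6.43 and 5.61 FPKM in vector control 1, 2 and 3 (-1.18, limma adjusted p = 0.347). In the second, FDXR, the ferredoxin reductase gene, was highest at 0.42 (limma adjusted p = 0.317). The stress cytokine gene GDF15 was lowest, with 18.41, 11.49 and 11.81 FPKM in KO 1, 2 and 3, against 4.68, 103.53 and 108.37 FPKM in vector control 1, 2 and 3 (-1.46, SE 1.07, limma adjusted p = 0.522). BBC3, GDF15 and PLK3 shared the pattern of GADD45B: vector control 1 lay below or within the KO range, and the other vector controls lay above every KO library. Of the 9624 tested genes GDF15 had the lowest vector control 1 relative to vector control 2 and 3, at -4.23 on the log2 scale.

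**Figure D4:**
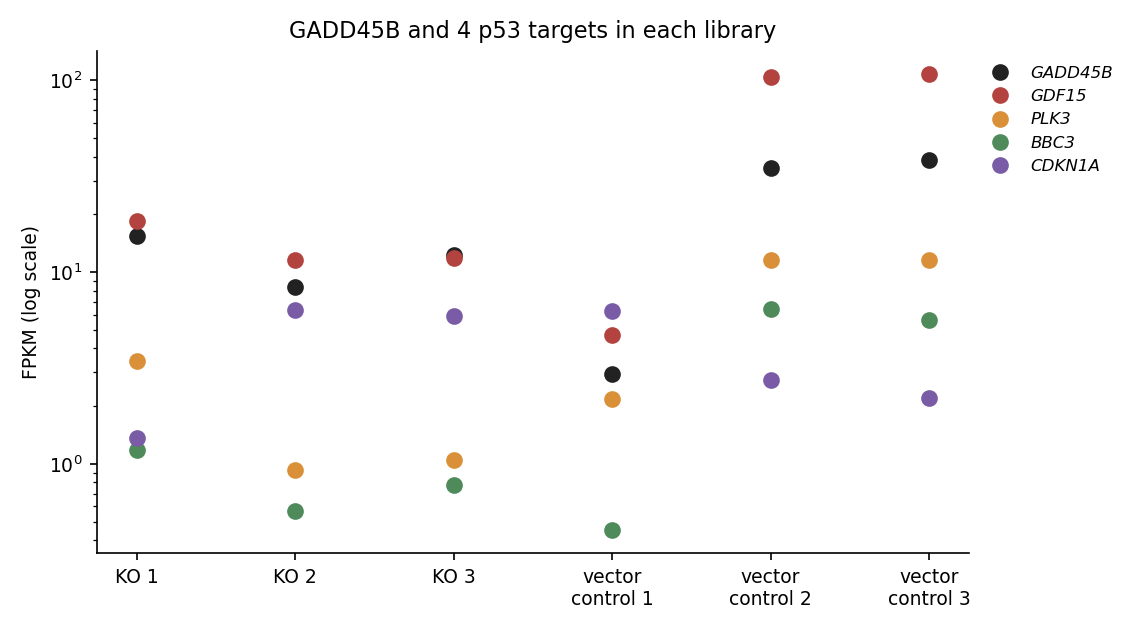
FPKM (log axis) of GADD45B and the p53 targets GDF15, PLK3, BBC3 and CDKN1A in each library. The first 4 genes are high in vector control 2 and 3 and lower in the KO libraries and in vector control 1, whereas CDKN1A is high in KO 2, KO 3 and vector control 1.

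Of the GADD45 binding partners and stress kinases 0 of 12 were called (median 0.03). MAP2K3, a kinase that activates p38, was lowest, with 4.0, 5.02 and 4.30 FPKM in KO 1, 2 and 3, against 6.20, 9.94 and 11.18 FPKM in vector control 1, 2 and 3. The groups did not overlap (-0.86, SE 0.23, limma adjusted p = 0.141). MAPK14, which encodes p38 alpha, was highest at 0.67 (limma adjusted p = 0.448). Of 18 tested transcription factors known to act on GADD45 genes 0 were called (median -0.02), with BRCA1 highest at 0.44 (limma adjusted p = 0.547) and MYC, a repressor of GADD45A, lowest at -1.07 (limma adjusted p = 0.234). DDIT3, the stress factor CHOP, lay in a row joined with AC022506, which was not counted. That row had 29.11, 10.39 and 8.25 FPKM in KO 1, 2 and 3, against 6.97, 69.97 and 54.91 FPKM in vector control 1, 2 and 3, again with vector control 1 lowest.

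In the death receptor pathway of FAS 0 of 12 were called (median 0.11). RIPK1, the kinase recruited by death receptors, was highest, with 7.76, 16.38 and 17.75 FPKM in KO 1, 2 and 3, against 11.40, 1.27 and 1.43 FPKM in vector control 1, 2 and 3. Vector control 1 lay within the KO range (1.79, SE 0.66, limma adjusted p = 0.236). TNFRSF10A, a TRAIL receptor gene, was lowest at -0.44 (limma adjusted p = 0.317). FASLG, the ligand of FAS, was listed at 0 in all 6 libraries. Around SESN1, 0 of 11 sestrin and GATOR genes were called (median 0.29), from -0.34 for the AMPK subunit gene PRKAA2 (limma adjusted p = 0.645) to 0.43 for the GATOR2 subunit gene WDR24 (limma adjusted p = 0.376).

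Around RRM2B, 0 of 8 genes of ribonucleotide reductase and deoxynucleotide supply were called (median -0.04). RRM1, the large subunit, was lowest at -0.26 (limma adjusted p = 0.382). Of 7 PPM family phosphatases tested beside PPM1D, 0 were called (median 0.22). PPM1M was highest, with 4.64, 3.20 and 3.75 FPKM in KO 1, 2 and 3, against 1.95, 1.52 and 2.0 FPKM in vector control 1, 2 and 3 (0.78, SE 0.17, limma adjusted p = 0.0955). PPM1A was lowest, with 2.50, 1.24 and 1.31 FPKM in KO 1, 2 and 3, against 3.58, 4.26 and 4.17 FPKM in vector control 1, 2 and 3 (-0.93, SE 0.21, limma adjusted p = 0.0990). Both separated the groups and missed the threshold.

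**Figure D5:**
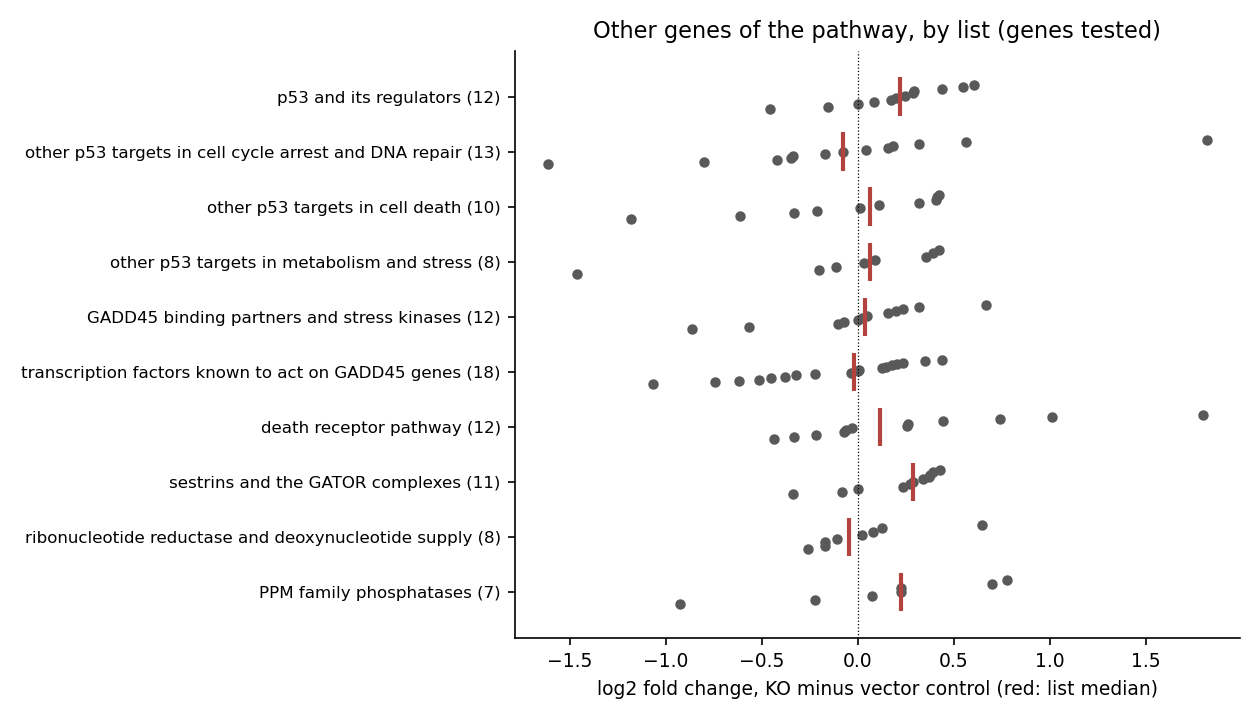
Log2 fold changes (KO minus vector control) of the tested genes of each list (grey points, 1 per gene) with the list median (red bar) and the number tested in brackets. Of the genes shown, 0 were called, and the medians lie between -0.08 and 0.29.

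The genes whose pattern was most like that of GADD45A were sought by Pearson's r of log2(FPKM + 1) over the 6 libraries, among 1373 genes with a mean of at least 5 FPKM and a range of at least 1 log2 unit. Since the libraries form 2 groups, these values describe the likeness of patterns and carry no test. The highest were the organic anion transporter gene SLCO4A1 (0.997), the tetraspanin gene CD9 (0.997), the potassium channel gene KCNK5 (0.994), the integrin gene ITGA5 (0.993) and the interleukin-1 receptor kinase gene IRAK2 (0.986). CD9 had 13.93, 11.61 and 10.73 FPKM in KO 1, 2 and 3, against 20.39, 32.69 and 34.50 FPKM in vector control 1, 2 and 3. As with GADD45A, vector control 1 lay between the KO libraries and the other vector controls. The lowest were the LATS activator gene MOB1A (-0.997), the myotubularin-related gene MTMR12 (-0.995), the histone gene HIST1H2AC (-0.986), and the transcription factor genes TRPS1 (-0.985) and RUNX1 (-0.984). HIST1H2AC has near-identical copies, so its level depends on how shared reads were assigned. Of the other members, FAS had 0.899 and MDM2 -0.955, while GADD45B had 0.545.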

How the data were processed

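Total RNA of 6 MIA PaCa-2 libraries was measured. The authors deposited 1 table of FPKM with 1 column per library. Per the submitters' processing notes, the tools were cutadapt, FastQC and HISAT2 with build hg19. How FPKM was computed, with which annotation and strand setting, is not given in the sources used here. A search for whole-read steps among low values found none (best concentration 0.378, where exact multiples give 1), so depth is unknown and the number of libraries limits the precision. Genes of the mitochondrial genome (13 rows) stood at 0 everywhere, so a 0 can be an unmeasured value.

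The 9624 genes that reached 1 FPKM in 3 or more libraries entered limma 3.58.1 (R 4.3.3; lmFit and eBayes, trend and two-sided) as log2(FPKM + 1), KO minus vector control, with Benjamini-Hochberg adjustment over all tested genes and a threshold of 0.05. This scale understates the change of low genes. The fit was tested on simulated data. Limma called 130 genes, 49 higher and 81 lower in KO; quantile normalization gave 31 higher and 99 lower. The members and lists were chosen with earlier results of these data known. The text names all members, each list's called genes and its highest and lowest fold change (1 of these is not reported here), the 10 genes most like or unlike GADD45A, and the highest marker of each cell type; CDKN1A, DDIT3, FASLG, COL3A1, the markers listed at 0 or below 1 FPKM, KRT19, and PPM1A without KO 1 were named after their values were seen. Sequences are from RefSeq on GRCh38.p14, a build other than that of the values. Alternatives were other pseudocounts, filters, scalings and thresholds, no trend, robust limma with array weights, a replicate block, and each library left out.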

Additional observations from a re-analysis of the deposited data

How the results depend on the processing

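Over all genes limma called 130, and 241 without a filter, 59 with a filter at 5 FPKM, 4020 with robust limma and array weights, 31 at an adjusted p below 0.01 and 274 below 0.1, and from 25 to 1329 with 1 library left out (without KO 3 and without vector control 1; 121 without KO 1, 29 without KO 2 and 39 without vector control 2 or 3). Of the members 1 was called, and 0 without a filter, 0 with a filter at 5 FPKM, 6 with robust limma and array weights (FAS, GADD45A, GADD45B, MDM2, PPM1D and SESN1), 0 at an adjusted p below 0.01, 2 below 0.1 (FAS and GADD45A), and 0 to 4 with 1 library left out. Of the 106 tested list genes 0 were called, and 52 with robust limma and array weights, 3 at an adjusted p below 0.1 (PPM1A, PPM1E and PPM1M), and 0 to 14 with 1 library left out. The cause of these changes was not tested. FAS passed the main filter only through the vector controls, so nothing is read from its calls. With the replicate block limma called 7 genes over all, 0 members and 0 list genes. Deviations of same-numbered libraries from their group means correlated at r = -0.374, -0.153 and -0.264 for replicates 1, 2 and 3. Libraries of different numbers were not compared, so these values cannot decide on pairing. The labels name no pairs, so the numbers are not read as pairs. The fold changes of GADD45A and FAS stayed below 0 and those of MDM2, SESN1, PPM1D and TP53I3 above 0 in every alternative that gave a value; RRM2B, near 0, lay above 0 in 2 of 15. With median scaling the median of all tested genes moved to -0.00130. Of the single fold changes and list medians, 240 values moved by less than the spread between replicates and 41 by more. For GADD45B that spread takes in vector control 1, and 0 of its values moved by more, though they ran from -1.57 to 0.10. A move below the spread therefore need not mean a stable value.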
